A study of Homo sapiens with 12 samples.

Results

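The measurement described here is the genotype by sorafenib interaction in HepG2, a cell line from a human liver tumour: for every gene, the response to sorafenib in ARID1B-KO cells minus the response in wild-type (WT) cells. It uses all 12 libraries of the series in a single model of 4 groups with 3 biological replicates each. ARID1B-KO cells, in which ARID1B was disrupted with CRISPR/Cas9, received 5 µM sorafenib for 48 h or DMSO, the vehicle, at 0.1%. WT cells received the same sorafenib dose for the same 48 h or the same DMSO. The labels call the vehicle equivalent and give no separate time for it. The number of knockout clones is not in the labels, so a property of a clone and the loss of ARID1B cannot be told apart. The study's title asks about ARID1B loss and resistance to sorafenib, and the interaction is the contrast in which the effect of the drug is set side by side in the 2 genotypes.

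ARID1B is an ARID-domain subunit of the BAF (SWI/SNF) chromatin remodelling complex, which moves nucleosomes at promoters and enhancers, and its paralog ARID1A can occupy the same place in the complex. Sorafenib inhibits RAF kinases and receptor tyrosine kinases such as the VEGF and PDGF receptors. RAF lies upstream of MEK and ERK, and ERK activity is read out by transcription of ETS factors and of feedback inhibitors of the DUSP, SPRY and SPRED families. A positive interaction means that the log2 response was more positive in ARID1B-KO cells, through a larger rise, a smaller fall, or a rise in ARID1B-KO beside a fall in WT. A negative one means the reverse.

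Libraries held 19739582 to 29398257 estimated counts, and 12821 genes were tested. All 10 hepatocyte lineage markers were expressed, and of 5 markers each for other cell types, DCN (fibroblast), KDR (endothelial), PTPRC (blood) and CFTR (cholangiocyte) were at 0 in every library. Low levels were measured for the fibroblast and stellate marker PDGFRB, with means of 0.456 TPM with sorafenib and 2.05 TPM with DMSO in ARID1B-KO and 1.08 TPM with sorafenib and 6.2 TPM with DMSO in WT, for the endothelial marker CDH5, with group means up to 1.33 TPM, and for the blood marker CD14, up to 2.55 TPM. The cholangiocyte markers EPCAM, KRT19 and SOX9 were expressed. Lysozyme (LYZ) was the blood marker with a high level, at a mean of 584 TPM with sorafenib and 2510 TPM with DMSO in ARID1B-KO, and 1050 TPM with sorafenib and 4680 TPM with DMSO in WT. Albumin took 6.644% to 9.353% of counts in sorafenib-treated ARID1B-KO libraries, 4.938% to 5.421% in DMSO-treated ARID1B-KO, 4.01% to 4.244% in sorafenib-treated WT and 3.162% to 3.315% in DMSO-treated WT, and mitochondrial genes took 6.55% to 11.92% over all libraries. ARID1B, the targeted gene, was lower in every ARID1B-KO library. ARID1B had 35.6, 25.9 and 26.5 CPM in sorafenib-treated ARID1B-KO cells, against 26.4, 28.0 and 27.6 CPM with DMSO, and 67.5, 69.1 and 62.3 CPM in sorafenib-treated WT cells, against 58.4, 61.9 and 66.7 CPM with DMSO. CPM are counts scaled to TMM-normalised library sizes, as edgeR gives them. All ARID1B-KO libraries lay below all WT libraries, the levels with sorafenib and DMSO overlapped within each genotype, and the ARID1B interaction was 0.02 ± 0.16 (adjusted p = 0.977) on the log2 scale.

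The genes whose sorafenib response differed between the genotypes included 4 genes of ERK signalling output and feedback and 3 DNA replication genes, which fell further in ARID1B-KO cells on the log2 scale. The polyamine enzyme SAT1 and the Notch target HEY1 had a more negative response in WT cells. Of the 17 Notch pathway genes tested, 11 had a negative interaction, unlike HEY1. In total 107 of the 12821 genes tested passed the edgeR quasi-likelihood test at an adjusted p under 0.05 (0.835%), 48 of them with a higher interaction (0.374%) and 59 with a lower one (0.46%). Over all genes the median interaction was -0.01 and 48.6% were positive. Among called genes whose highest group averaged 5 CPM or more, 42 were higher, with a median log2 interaction of 0.92 (1.89-fold), and 57 were lower, with a median of -0.63 (1.55-fold). By comparison, 5982 genes (46.7%) were called for sorafenib within ARID1B-KO and 4543 (35.4%) within WT. A test called in 1 genotype and missed in the other does not show a difference. For single genes, a difference in response between the genotypes is therefore stated below only from the interaction test itself. Shares and medians over many genes are descriptions.

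**Figure D1:**
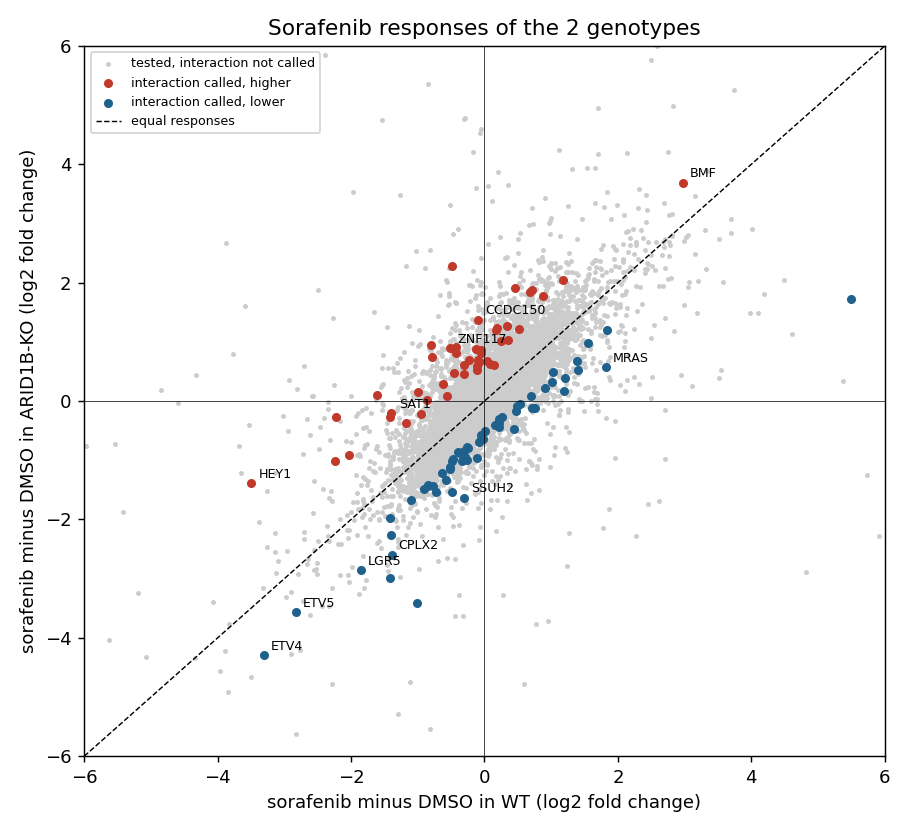
Log2 fold change with sorafenib in WT (x axis) and in ARID1B-KO (y axis) for the genes tested whose values lie within 6 on both axes, with genes called for the interaction in red (higher) and blue (lower) and equal responses on the dashed line. The grey cloud follows the dashed line, and the called genes lie on both sides of it, among them ETV4 and ETV5 far down the lower left, where both genotypes fell.

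The number of calls depended on single libraries and on the treatment of transcript length. Without sorafenib-treated ARID1B-KO replicates 1 and 2, left out in turn, 22 and 12 genes were called, and without replicate 3, 138. The DMSO-treated ARID1B-KO replicates 1, 2 and 3, left out in turn, gave 25, 21 and 21 genes. The sorafenib-treated WT replicates gave 22, 5 and 16, and the DMSO-treated WT replicates 73, 13 and 17. DESeq2 called 555 of 11907 genes (4.66%), including all 107, and limma-voom called 70 of the 107. With the authors' effective transcript lengths entered as an offset, 2 genes were called, SSUH2 and RAB17. All 107 genes kept the sign of their interaction in each of the 12 fits without a library. SSUH2, RAB17, CCDC150, ZNF117 and H4C15 were called in all 12, and ETV4, SPRING1, KANK4, SAT1 and MRAS in 11 of them, the exception being the fit without sorafenib-treated WT replicate 2, where each had an adjusted p of 0.0551. Another 15 genes were called in none of the 12, and 71 in 1 to 3.

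**Figure D2:**
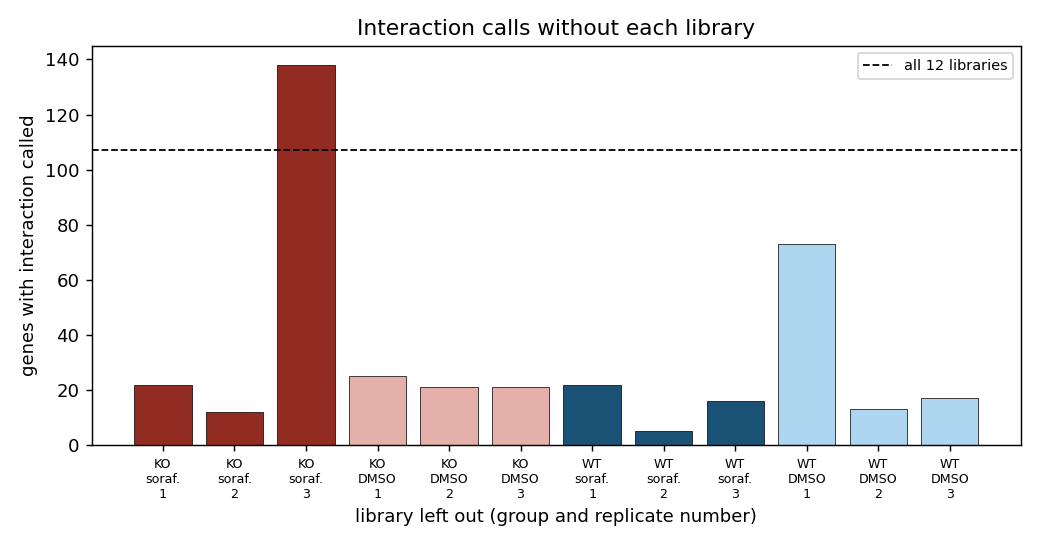
Number of genes called for the interaction (y axis, from 0) when the library on the x axis, named by group and replicate number, is left out, with the count over all 12 libraries as the dashed line at 107. The counts run between 5 and 138, and leaving out sorafenib-treated ARID1B-KO replicate 3 or DMSO-treated WT replicate 1 gives the 2 highest.

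The smallest adjusted p belonged to SSUH2 (chr3:8619386-8745040, GRCh38), whose fall was larger in ARID1B-KO cells. SSUH2 had 8.08, 7.93 and 7.90 CPM in sorafenib-treated ARID1B-KO cells, against 23.4, 23.9 and 27.1 CPM with DMSO, and 21.9, 25.3 and 25.2 CPM in sorafenib-treated WT cells, against 31.4, 29.1 and 28.7 CPM with DMSO. The sorafenib-treated ARID1B-KO libraries lay well below the other 9, which were between 21.9 and 31.4 CPM. The response was -1.64 ± 0.10 in ARID1B-KO and -0.30 ± 0.09 in WT, and the interaction -1.33 ± 0.13 (adjusted p = 0.00185).

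RAB17 (chr2:237574322-237601614), a small GTPase of membrane traffic in polarised epithelial cells, moved in opposite directions. In ARID1B-KO cells RAB17 was at 100.4, 95.5 and 102 CPM with sorafenib and 54.5, 57.8 and 56.8 CPM with DMSO, and in WT cells at 23.4, 30.0 and 30.6 CPM with sorafenib and 37.9, 40.1 and 35.1 CPM with DMSO. No library of a group overlapped with those of another group. RAB17 rose with sorafenib in ARID1B-KO and fell in WT, with a response of 0.82 ± 0.10 in ARID1B-KO and -0.43 ± 0.10 in WT and an interaction of 1.25 ± 0.14 (adjusted p = 0.0034).

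CCDC150 (chr2:196639554-196763490), a coiled-coil protein gene, rose in ARID1B-KO cells. CCDC150 levels were 22.5, 22.3 and 27.3 CPM with sorafenib and 8.94, 9.30 and 9.57 CPM with DMSO in ARID1B-KO cells, and 7.50, 6.08 and 7.03 CPM with sorafenib and 7.05, 7.30 and 7.68 CPM with DMSO in WT cells. The sorafenib-treated ARID1B-KO libraries stood above all others, and the WT groups overlapped. Its response was 1.37 ± 0.12 in ARID1B-KO and -0.09 ± 0.12 in WT, with an interaction of 1.47 ± 0.17 (adjusted p = 0.0034). CCDC150 overlaps GTF3C3 on the opposite strand, as do ATF5 and NUP62, FILIP1L and CMSS1, MAFF and PLA2G6, ETV4 and DHX8, TP53INP1 and NDUFAF6, and POLDIP2 and TNFAIP1. No source used here says whether the counting used strand, so the levels of these genes are uncertain.

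ZNF117 (chr7:64971772-65006684), a zinc finger protein gene, also moved in opposite directions. ZNF117 had 10.7, 12.1 and 13.1 CPM in sorafenib-treated ARID1B-KO cells, against 7.04, 5.93 and 6.35 CPM with DMSO, and 14.6, 14.4 and 13.6 CPM in sorafenib-treated WT cells, against 18.6, 19.8 and 22.5 CPM with DMSO. Within each genotype the treatments did not overlap. The response was 0.89 ± 0.12 in ARID1B-KO and -0.52 ± 0.11 in WT and the interaction 1.41 ± 0.16 (adjusted p = 0.0034). The gene shares a strand and sequence span with ERV3-1, so its level is uncertain.

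H4C15, a replication-dependent histone H4 gene, had 68, 53 and 38 counts in sorafenib-treated ARID1B-KO cells and 2, 0 and 0 with DMSO, against 36, 12 and 24 in sorafenib-treated WT cells and 36, 23 and 36 with DMSO. The summed counts gave a ratio of 77.58 in ARID1B-KO (95% interval 21.13 to 646.2) and 0.808 in WT (0.587 to 1.11), where the intervals cover counting error only. H4C14 is a near-identical copy of H4C15, and Salmon divides shared reads between them. Summed over H4C14 and H4C15, the ratio was 3.681 in ARID1B-KO (2.737 to 5.02) and 2.092 in WT (1.684 to 2.609). The ratios of the 2 genotypes thus lay closer together for the sum than for H4C15, whose own level is uncertain.

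**Figure D3:**
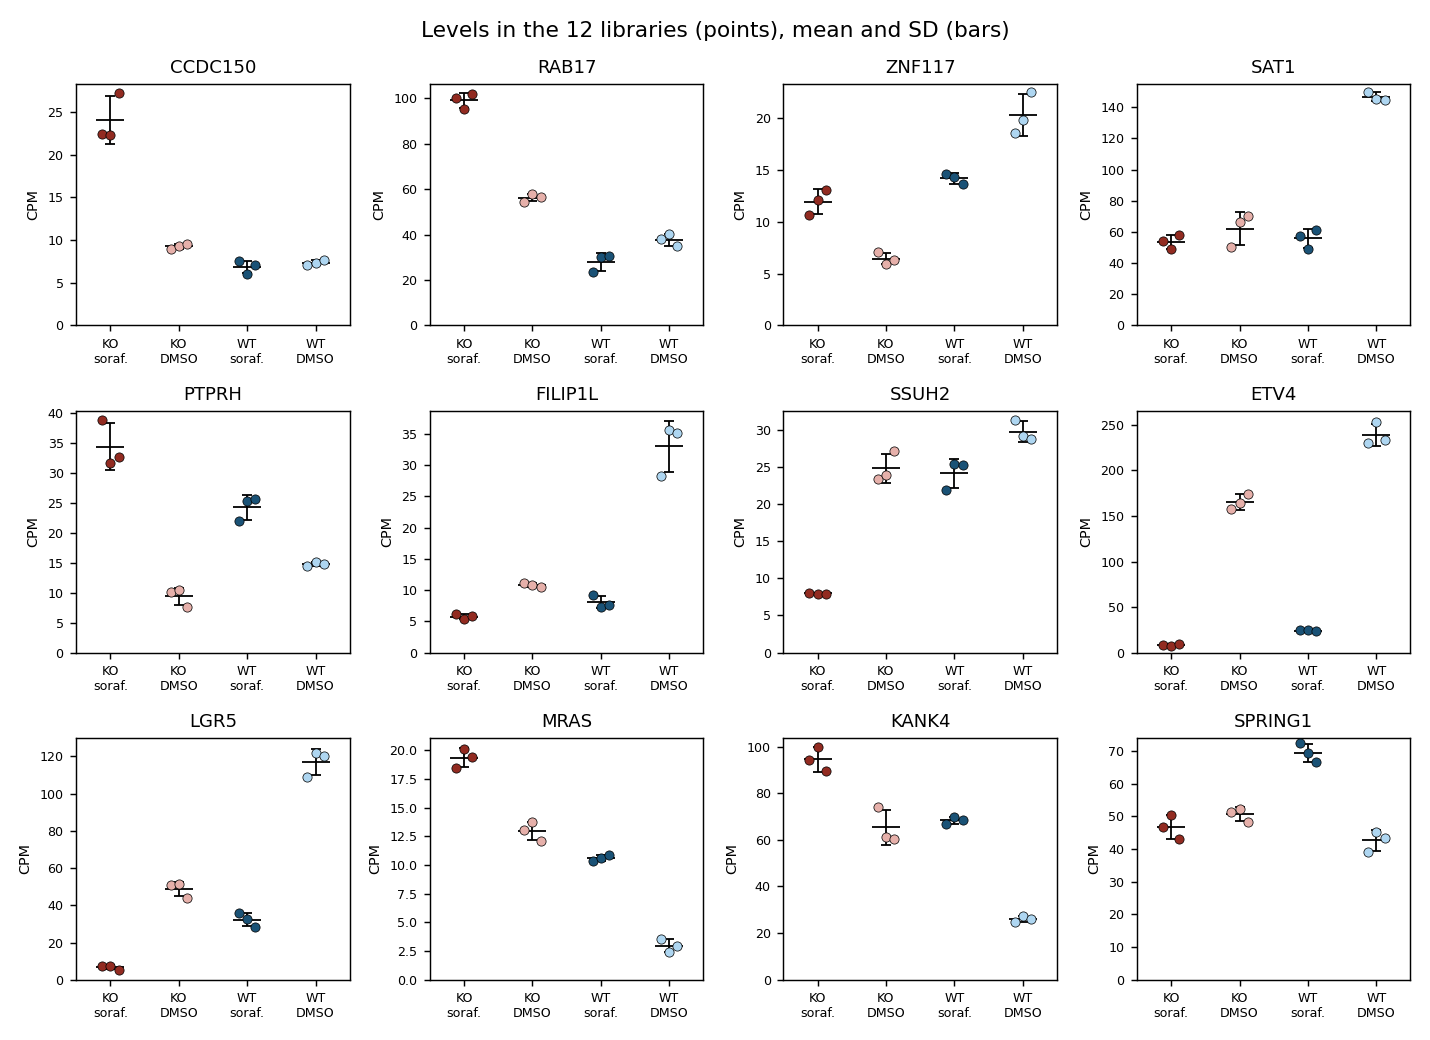
CPM (y axis, from 0) of 12 genes called for the interaction in the 12 libraries, with points for libraries and bars for the mean and SD of n = 3, ordered as ARID1B-KO sorafenib, ARID1B-KO DMSO, WT sorafenib and WT DMSO. The sorafenib-treated ARID1B-KO group stands apart for CCDC150 and SSUH2, and the DMSO-treated WT group for SAT1 and KANK4.

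Among the genes called in 11 of the 12 fits, SAT1 (chrX:23783173-23786210), which acetylates spermidine and spermine and limits the rate of polyamine breakdown, fell in WT cells. SAT1 had 54.1, 49.0 and 58.0 CPM in sorafenib-treated ARID1B-KO cells, against 50.02, 66.3 and 70.0 CPM with DMSO, and 57.2, 49.1 and 61.1 CPM in sorafenib-treated WT cells, against 150.0, 145 and 145 CPM with DMSO. The DMSO-treated WT libraries stood above the other 9, which were between 49.0 and 70.0 CPM. Its response was -0.21 ± 0.12 in ARID1B-KO and -1.39 ± 0.12 in WT, and the interaction 1.18 ± 0.17 (adjusted p = 0.0136).

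SPRING1 (chr12:116710171-116738070), a membrane protein needed for the processing of the SREBP factors that drive sterol synthesis genes, rose in WT. In ARID1B-KO cells SPRING1 was at 46.8, 50.4 and 43.0 CPM with sorafenib and 51.2, 52.4 and 48.2 CPM with DMSO, and in WT cells at 72.4, 69.4 and 66.8 CPM with sorafenib and 39.2, 45.2 and 43.5 CPM with DMSO. Sorafenib-treated WT libraries were above all others, and the ARID1B-KO groups overlapped. The response was -0.12 ± 0.08 in ARID1B-KO and 0.71 ± 0.08 in WT, with an interaction of -0.82 ± 0.12 (adjusted p = 0.0136).

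MRAS (chr3:138347648-138405534), a RAS-family GTPase that takes part in the activation of RAF, rose in both genotypes, and rose less in ARID1B-KO on the log2 scale. MRAS levels were 18.5, 20.1 and 19.4 CPM with sorafenib and 13.03, 13.8 and 12.1 CPM with DMSO in ARID1B-KO cells, and 10.4, 10.6 and 10.9 CPM with sorafenib and 3.56, 2.43 and 2.96 CPM with DMSO in WT cells. The groups did not overlap, and both ARID1B-KO groups lay above both WT groups. The response was 0.58 ± 0.12 in ARID1B-KO and 1.82 ± 0.13 in WT, and the interaction -1.25 ± 0.18 (adjusted p = 0.0136). KANK4 (chr1:62236165-62319434), of a family of cytoskeletal regulators, had the same shape. KANK4 had 94.1, 99.9 and 89.4 CPM in sorafenib-treated ARID1B-KO cells, against 74.2, 61.4 and 60.4 CPM with DMSO, and 66.8, 69.8 and 68.6 CPM in sorafenib-treated WT cells, against 24.7, 27.2 and 25.97 CPM with DMSO. Its low group was WT with DMSO, and its interaction was -0.86 ± 0.12 (adjusted p = 0.0136).

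The 107 genes fell into 5 shapes. In 36 genes both genotypes responded in the same direction and the response was larger in ARID1B-KO (7 rose and 29 fell). In 14 it was smaller in ARID1B-KO (10 rose and 4 fell). In 11 genes the genotypes moved in opposite directions, 7 of them up in ARID1B-KO and down in WT and 4 the other way. A response was called only within ARID1B-KO for 30 genes and only within WT for 16. In 48 of the 107 genes the 3 libraries of a single group lay outside the range of the other 9 and the means of the other 3 groups lay within 1.5-fold of each other, a sorting chosen after the values were seen. That group was sorafenib-treated ARID1B-KO for 21 genes (8 higher and 13 lower), DMSO-treated ARID1B-KO for 12 (2 higher and 10 lower), sorafenib-treated WT for 2 (1 in each direction) and DMSO-treated WT for 13 (4 higher and 9 lower).

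Beside RAB17 and ZNF117, opposite directions were measured for CLK1, a kinase of splicing factors. CLK1 had 60.0, 56.6 and 65.1 CPM in sorafenib-treated ARID1B-KO cells, against 34.8, 40.6 and 43.2 CPM with DMSO, and 38.0, 29.5 and 33.7 CPM in sorafenib-treated WT cells, against 45.0, 37.9 and 42.8 CPM with DMSO. Its response was 0.61 ± 0.11 in ARID1B-KO and -0.31 ± 0.11 in WT, with an interaction of 0.93 ± 0.16 (adjusted p = 0.0264), and the WT groups overlapped. ARHGEF2, an activator of the GTPase RhoA, had the same pattern. In ARID1B-KO cells ARHGEF2 was at 24.9, 20.7 and 23.4 CPM with sorafenib and 14.4, 17.8 and 17.6 CPM with DMSO, and in WT cells at 15.8, 16.99 and 16.2 CPM with sorafenib and 19.8, 25.3 and 21.9 CPM with DMSO. Its interaction was 0.92 ± 0.16 (adjusted p = 0.0306). SDHAP1, a pseudogene of the succinate dehydrogenase subunit SDHA, was also called (1.52 ± 0.26), but its counts are uncertain because it shares sequence with SDHA. A second gene entry of the same name overlaps the called one on the same strand. The called entry held 1187 counts and the second 871, and the entries were not summed.

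The other direction, a fall in ARID1B-KO and a rise in WT, was measured for DKK1, a secreted inhibitor of WNT signalling. DKK1 levels were 12.9, 11.7 and 9.09 CPM with sorafenib and 16.3, 15.1 and 15.4 CPM with DMSO in ARID1B-KO cells, and 158, 152 and 126 CPM with sorafenib and 116, 98.9 and 107 CPM with DMSO in WT cells. Every ARID1B-KO library was far below every WT library. The response was -0.47 ± 0.13 in ARID1B-KO and 0.44 ± 0.12 in WT, and the interaction -0.91 ± 0.17 (adjusted p = 0.0347). MPP7, a scaffold protein of cell polarity, responded by -0.43 ± 0.08 in ARID1B-KO and 0.22 ± 0.08 in WT on levels of 22.4, 24.9 and 24.9 CPM with sorafenib and 33.6, 30.9 and 32.9 CPM with DMSO in ARID1B-KO, and 22.1, 23.5 and 21.1 CPM with sorafenib and 19.0, 19.1 and 19.3 CPM with DMSO in WT. POLDIP2, a binding partner of DNA polymerase delta, responded by -0.31 ± 0.07 in ARID1B-KO and 0.22 ± 0.07 in WT, and both changes were under 1.5-fold. The remaining 3 of the 11 genes were TM4SF1 and RHBDL2, up in ARID1B-KO, and SAP130, down in ARID1B-KO, which lie outside the rule for named genes and were named after their values were seen.

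In 7 genes the response was at least 2-fold in ARID1B-KO while the 95% interval of the WT response stayed within 1.5-fold in either direction. They were CCDC150, EPS8L3, LGALS1, SCN9A and USP35, which rose, and SSUH2 and HMGA1, which fell. EPS8L3, a relative of the actin regulator EPS8, responded by 1.20 ± 0.14 in ARID1B-KO and 0.18 ± 0.13 in WT. LGALS1, the galactoside-binding protein galectin-1, was lowest in DMSO-treated ARID1B-KO cells. LGALS1 levels were 14.98, 13.7 and 19.7 CPM with sorafenib and 7.04, 6.29 and 7.31 CPM with DMSO in ARID1B-KO cells, and 22.3, 23.2 and 22.6 CPM with sorafenib and 23.1, 17.98 and 18.6 CPM with DMSO in WT cells. Sorafenib-treated ARID1B-KO libraries lay below the sorafenib-treated WT ones and overlapped with the DMSO-treated WT ones, and the interaction was 1.04 ± 0.20 (adjusted p = 0.0347). HMGA1, an architectural chromatin protein, fell further in ARID1B-KO than in WT. In ARID1B-KO cells HMGA1 was at 128, 135 and 133 CPM with sorafenib and 274, 248 and 279.6 CPM with DMSO, and in WT cells at 289, 305 and 315 CPM with sorafenib and 356, 391 and 405 CPM with DMSO. Its sorafenib-treated ARID1B-KO libraries were the lowest, and its interaction was -0.68 ± 0.12 (adjusted p = 0.0302). SCN9A, a voltage-gated sodium channel, and USP35, a deubiquitinase, had interactions of 0.68 ± 0.13 and 0.76 ± 0.16, and USP35 was called in none of the 12 fits without a library.

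With the genotypes exchanged, 4 genes met the same condition: PTP4A3 and HMGCS1 rose in WT, and SAT1 and PPM1L fell in WT. PTP4A3, a protein tyrosine phosphatase, had 14.1, 13.4 and 14.5 CPM with sorafenib and 14.6, 12.6 and 10.2 CPM with DMSO in ARID1B-KO, and 13.6, 14.6 and 17.2 CPM with sorafenib and 6.64, 6.69 and 6.59 CPM with DMSO in WT. Only DMSO-treated WT libraries stood apart, below the rest, and the interaction was -1.02 ± 0.19 (adjusted p = 0.0347). PPM1L, a protein phosphatase of the PP2C family, differed far more between genotypes than between treatments. PPM1L had 35.02, 28.9 and 26.6 CPM in sorafenib-treated ARID1B-KO cells, against 30.4, 30.9 and 22.4 CPM with DMSO, and 0.789, 0.335 and 0.461 CPM in sorafenib-treated WT cells, against 1.57, 1.78 and 1.69 CPM with DMSO. Its WT response was measured on 7 to 46 counts per library, at -1.61 ± 0.27, and its interaction was 1.72 ± 0.32 (adjusted p = 0.0315).

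HEY1, a transcriptional repressor induced by Notch, had the most positive interaction among the named genes other than H4C15. It was the 1 called of 17 Notch pathway genes tested, beside 0.374% of all genes called higher. Of the 17, 11 had a negative interaction, and the list median was -0.10. HEY1 had 0.968, 0.688 and 0.494 CPM in sorafenib-treated ARID1B-KO cells, against 1.85, 1.66 and 2.16 CPM with DMSO, and 0.861, 0.814 and 0.963 CPM in sorafenib-treated WT cells, against 9.52, 10.3 and 10.2 CPM with DMSO. The sorafenib-treated groups of both genotypes overlapped at under 1 CPM, and the DMSO-treated groups differed, with WT above ARID1B-KO. HEY1 fell in both genotypes, with responses of -1.38 ± 0.23 in ARID1B-KO and -3.50 ± 0.22 in WT, with an interaction of 2.12 ± 0.32 (adjusted p = 0.0181). FILIP1L, a filamin-binding protein, had the same shape. In ARID1B-KO cells FILIP1L was at 6.19, 5.32 and 5.83 CPM with sorafenib and 11.1, 10.8 and 10.6 CPM with DMSO, and in WT cells at 9.15, 7.37 and 7.62 CPM with sorafenib and 28.3, 35.6 and 35.1 CPM with DMSO. Its interaction was 1.13 ± 0.17 (adjusted p = 0.0181). TGFBR3, the TGF-beta co-receptor betaglycan, fell to 89.8, 71.8 and 55.9 CPM with sorafenib in ARID1B-KO, against 172, 149 and 116 CPM with DMSO, and to 89.0, 96.3 and 75.3 CPM in WT, against 367, 434 and 435 CPM. The sorafenib-treated groups overlapped, the DMSO-treated groups did not, and the interaction was 1.24 ± 0.25 (adjusted p = 0.0413).

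CEBPA, a transcription factor that maintains hepatocyte identity, rose in both genotypes and rose less in ARID1B-KO. CEBPA levels were 360.3, 351 and 343 CPM with sorafenib and 315, 292 and 296 CPM with DMSO in ARID1B-KO cells, and 272, 282 and 282 CPM with sorafenib and 152, 146 and 148 CPM with DMSO in WT cells. DMSO-treated WT libraries were the lowest, and all ARID1B-KO libraries were above all WT ones. The response was 0.22 ± 0.07 in ARID1B-KO and 0.91 ± 0.07 in WT, and the interaction -0.68 ± 0.10 (adjusted p = 0.0181). CABLES2, of a family that links cyclin-dependent kinases to other kinases, also rose less in ARID1B-KO on the log2 scale (-0.63 ± 0.11), from a higher DMSO level. On the CPM scale its rise was larger in ARID1B-KO, by 7.70 CPM.

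PTPRH, a receptor-type tyrosine phosphatase, rose more in ARID1B-KO. PTPRH had 38.8, 31.6 and 32.6 CPM in sorafenib-treated ARID1B-KO cells, against 10.1, 10.4 and 7.69 CPM with DMSO, and 21.9, 25.3 and 25.6 CPM in sorafenib-treated WT cells, against 14.4, 15.1 and 14.8 CPM with DMSO. Sorafenib-treated ARID1B-KO libraries were the highest and DMSO-treated ARID1B-KO libraries the lowest of the 4 groups. The response was 1.87 ± 0.12 in ARID1B-KO and 0.71 ± 0.12 in WT, with an interaction of 1.16 ± 0.17 (adjusted p = 0.0167). FAM13A had a larger but less precise interaction, at 1.45 ± 0.30 (adjusted p = 0.0438). Falls that were larger in ARID1B-KO included TCOF1, the nucleolar protein treacle of ribosomal RNA synthesis. In ARID1B-KO cells TCOF1 was at 61.1, 62.1 and 60.3 CPM with sorafenib and 161, 159 and 145 CPM with DMSO, and in WT cells at 118, 119 and 113 CPM with sorafenib and 151, 183 and 187 CPM with DMSO. The response was -1.34 ± 0.09 in ARID1B-KO and -0.57 ± 0.09 in WT, and the interaction -0.77 ± 0.12 (adjusted p = 0.0261). CPLX2, a regulator of vesicle fusion, fell to 54.0, 58.0 and 51.9 CPM with sorafenib in ARID1B-KO, against 365, 331 and 293 CPM with DMSO, and to 47.2, 47.9 and 57.5 CPM in WT, against 105, 132 and 164 CPM. The sorafenib-treated groups overlapped, and the interaction was -1.20 ± 0.21 (adjusted p = 0.0264).

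Of 22 RAS-ERK feedback and output genes tested, 13 fell and 1 rose in ARID1B-KO, and 14 fell and 1 rose in WT, beside 23.7% of all genes called lower in ARID1B-KO and 18% in WT. For 4 of the 22 the fall was larger in ARID1B-KO on the log2 scale. All 4 called members had a lower interaction and none a higher one, beside 0.46% of all genes called lower. Over the 22 genes, 15 interactions were negative, with a median of -0.28 against -0.01 over all genes, and the median response was -1.25 in ARID1B-KO and -1.15 in WT. DESeq2 called 6 members, all lower, beside 2.63% of all genes called lower and 2.03% called higher by that tool. The 4 members were ETV4, ETV5, DUSP7 and SPRED2, the last of them outside the rule for named genes. Of the 12 fits without a library, 11 called ETV4, 4 called ETV5, 1 called DUSP7 and 1 called SPRED2.

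ETV4 (chr17:43527844-43579620), an ETS transcription factor of the PEA3 group, fell more than any other named gene but SPRY4 in ARID1B-KO. ETV4 had 8.33, 7.20 and 9.68 CPM in sorafenib-treated ARID1B-KO cells, against 157, 164 and 174 CPM with DMSO, and 24.8, 24.4 and 23.3 CPM in sorafenib-treated WT cells, against 230.1, 253 and 233 CPM with DMSO. The groups did not overlap, and ARID1B-KO lay below WT under both treatments. The response was -4.30 ± 0.11 in ARID1B-KO and -3.31 ± 0.10 in WT, and the interaction -0.99 ± 0.14 (adjusted p = 0.0136). Its paralog ETV5 (chr3:186046314-186110318) followed. In ARID1B-KO cells ETV5 was at 6.82, 5.64 and 6.52 CPM with sorafenib and 74.8, 74.5 and 76.2 CPM with DMSO, and in WT cells at 11.2, 12.6 and 11.1 CPM with sorafenib and 81.9, 85.1 and 80.2 CPM with DMSO. Its DMSO levels lay close together, its sorafenib levels were lower in ARID1B-KO, and the interaction was -0.74 ± 0.12 (adjusted p = 0.0261).

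DUSP7, a phosphatase of ERK, had 5.98, 7.80 and 6.67 CPM with sorafenib and 23.2, 17.2 and 18.7 CPM with DMSO in ARID1B-KO, and 9.54, 8.42 and 9.38 CPM with sorafenib and 12.7, 11.8 and 13.98 CPM with DMSO in WT. Here ARID1B-KO was above WT with DMSO and below it with sorafenib, and the interaction was -1.04 ± 0.20 (adjusted p = 0.0347). SPRED2, an inhibitor of RAS, had an interaction of -0.57 ± 0.11 (adjusted p = 0.041). SPRY4, a feedback inhibitor, had the largest response of the list and missed the threshold at -1.16 ± 0.25 (adjusted p = 0.0531). SPRY4 levels were 1.18, 1.47 and 1.98 CPM with sorafenib and 36.1, 41.1 and 38.7 CPM with DMSO in ARID1B-KO cells, and 4.84, 4.59 and 4.86 CPM with sorafenib and 41.6, 58.1 and 62.4 CPM with DMSO in WT cells. Its sorafenib-treated ARID1B-KO libraries were the lowest.

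DUSP6, the ERK phosphatase often used to read pathway activity, responded by -3.32 ± 0.16 in ARID1B-KO and -2.98 ± 0.15 in WT, with an interaction of -0.34 ± 0.21 (adjusted p = 0.492) and a 95% interval of -0.80 to 0.13. In CPM, the fall of ETV4 was smaller in ARID1B-KO by 58.0 CPM, that of DUSP6 by 43.4 CPM, that of SPRY4 by 12.2 CPM and that of ETV5 by 1.95 CPM, with mean DMSO levels that were higher in WT. For the called members ETV4 and ETV5, the larger fall in ARID1B-KO holds for the ratio and not for the difference, whereas that of the called DUSP7 was larger in ARID1B-KO in CPM too, with a difference of -9.19 CPM. The sign differed between the log2 and CPM scales for 7 of the 107 called genes.

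LGR5, a receptor for R-spondins and a WNT target, and MAFF, a small MAF transcription factor, had such a shape as well. LGR5 had 7.32, 7.43 and 5.38 CPM in sorafenib-treated ARID1B-KO cells, against 50.9, 51.2 and 44.1 CPM with DMSO, and 35.6, 32.5 and 28.6 CPM in sorafenib-treated WT cells, against 109, 122 and 120.2 CPM with DMSO. The response of LGR5 was -2.85 ± 0.13 in ARID1B-KO and -1.86 ± 0.12 in WT, with an interaction of -0.999 ± 0.17 (adjusted p = 0.0264), and in CPM its fall was smaller in ARID1B-KO by 42.5 CPM. MAFF fell to 1.18, 0.642 and 0.593 CPM with sorafenib in ARID1B-KO, against 6.13, 7.46 and 5.77 CPM with DMSO, and to 4.09, 3.54 and 3.43 CPM in WT, against 9.04, 9.69 and 10.8 CPM, with an interaction of -1.57 ± 0.31 (adjusted p = 0.0399). MAFF was called in 1 of the 12 fits without a library. LGR5 and DKK1 were the 2 called of 26 WNT targets and regulators tested, both lower, beside 0.46% of all genes. Of the 26, 17 had a positive interaction, and the list median was 0.09.

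DNA replication genes fell further in ARID1B-KO cells for the 3 of 48 that passed the test, E2F2, UHRF1 and MCM7, beside 0.46% of all genes called lower. No member was called higher by edgeR. The 24 members at an unadjusted p under 0.05 were all lower, beside 1963 of all 12821 genes at that threshold in either direction. Of the 48, 44 had a negative interaction (91.7%), and the median was -0.29, against -0.01 over all genes. The median response was -0.72 in ARID1B-KO, where 38 members were called lower (23.7% of all genes) and 0 higher (23% of all genes). It was -0.42 in WT, where 32 members were called lower (18% of all genes) and 2 higher (17.5% of all genes). DESeq2 called 14 members, all lower, beside 2.63% of all genes called lower by that tool. The summed level of the 48 genes was 2231, 2537 and 2608 CPM with sorafenib and 3666, 3679 and 3914 CPM with DMSO in ARID1B-KO, and 3001, 2680 and 2911 CPM with sorafenib and 3803, 3552 and 3647 CPM with DMSO in WT. Sorafenib-treated ARID1B-KO libraries were the lowest, and the DMSO-treated groups overlapped. Fewer dividing cells and less RNA per cell cannot be told apart in these bulk samples.

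**Figure D4:**
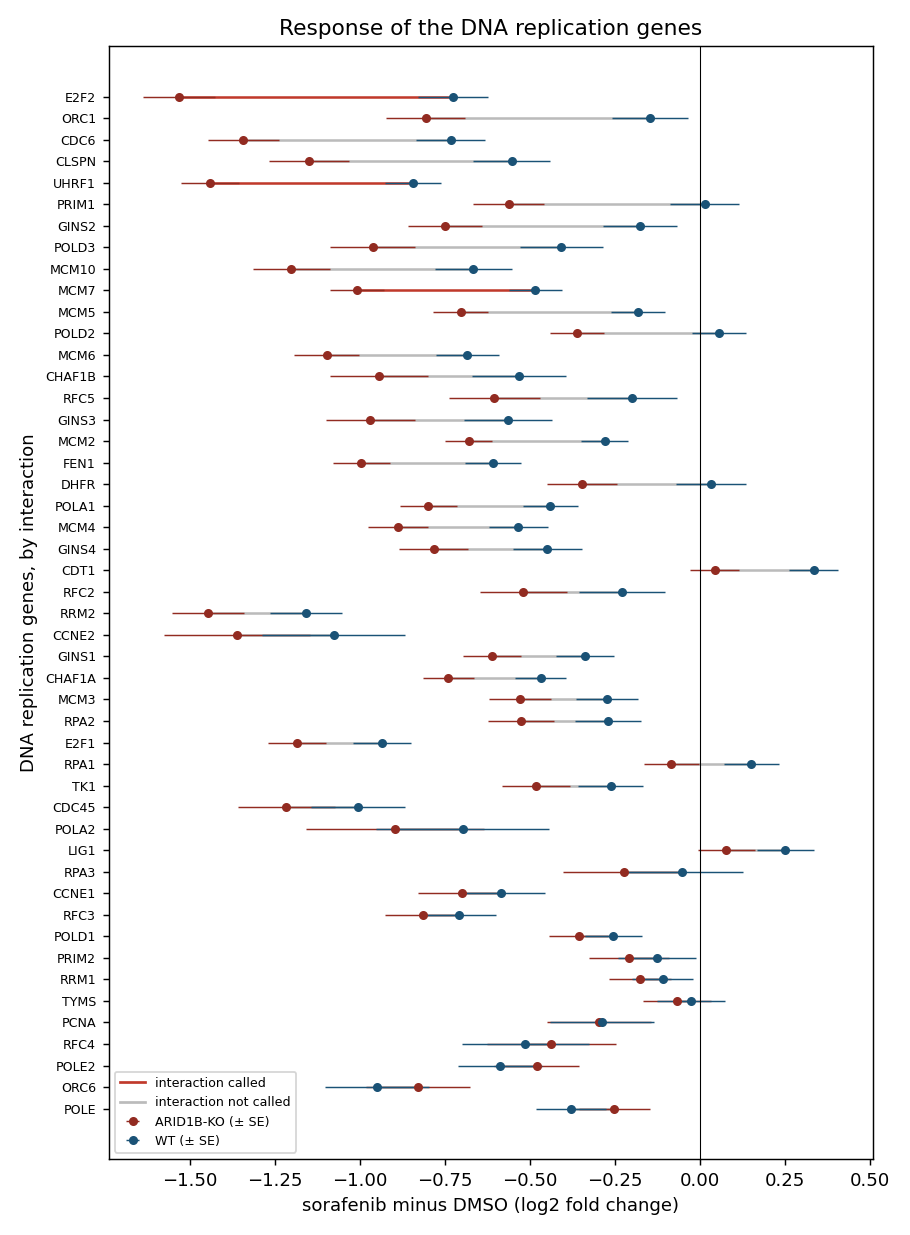
Log2 fold change with sorafenib (x axis) of the 48 DNA replication genes, in order of their interaction (y axis), with points and SE for ARID1B-KO (dark red) and WT (dark blue), joined in red where the interaction was called. In 44 of the 48 genes the ARID1B-KO point lies to the left of the WT point, and the 3 red lines mark E2F2, UHRF1 and MCM7.

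MCM7 is a subunit of the replicative helicase, UHRF1 recruits the maintenance DNA methyltransferase to new DNA, and E2F2 is a transcription factor of S-phase genes. MCM7 had 92.7, 97.5 and 97.7 CPM in sorafenib-treated ARID1B-KO cells, against 186, 187 and 205 CPM with DMSO, and 168, 148 and 158 CPM in sorafenib-treated WT cells, against 222, 214 and 228 CPM with DMSO. Sorafenib-treated ARID1B-KO libraries were the lowest by far, and the interaction was -0.52 ± 0.11 (adjusted p = 0.0465). In ARID1B-KO cells UHRF1 was at 39.8, 47.5 and 47.4 CPM with sorafenib and 124, 119.9 and 121 CPM with DMSO, and in WT cells at 82.7, 72.2 and 77.9 CPM with sorafenib and 138, 137 and 144 CPM with DMSO. The groups did not overlap, and the interaction was -0.60 ± 0.12 (adjusted p = 0.0411). E2F2 levels were 4.88, 5.64 and 5.13 CPM with sorafenib and 15.3, 14.9 and 15.1 CPM with DMSO in ARID1B-KO cells, and 6.85, 6.46 and 6.91 CPM with sorafenib and 11.2, 10.7 and 11.6 CPM with DMSO in WT cells. E2F2 was higher in ARID1B-KO than in WT with DMSO and lower with sorafenib, with an interaction of -0.80 ± 0.15 (adjusted p = 0.0315). Each of the 3 was called in 1 of the 12 fits without a library. CDC6, ORC1 and MCM5, which load or form the helicase, had interactions of -0.61 ± 0.14, -0.66 ± 0.16 and -0.52 ± 0.11, none of which passed. These genes lie outside the rule for named genes, and each was more negative than the list median of -0.29.

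The promoters of these 3 genes are shown because members that moved together can be looked at for the E2F motif, the sequence bound by the factors that drive S-phase genes. Each is the 250 bases before the RefSeq start on GRCh38.p14, 5′ to 3′ on the gene's strand, with matches to the E2F motif TTTCCCGC or its other core TTTGGCGC and to the E-box CACGTG, on either strand, in capitals.
MCM7 (chr7:100101398-100101647, minus strand): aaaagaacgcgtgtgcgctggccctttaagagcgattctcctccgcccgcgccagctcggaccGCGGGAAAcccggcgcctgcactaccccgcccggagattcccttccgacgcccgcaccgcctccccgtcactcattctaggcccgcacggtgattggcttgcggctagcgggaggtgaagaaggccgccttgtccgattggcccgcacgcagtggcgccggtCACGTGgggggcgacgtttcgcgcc
UHRF1 (chr19:4909251-4909500, plus strand): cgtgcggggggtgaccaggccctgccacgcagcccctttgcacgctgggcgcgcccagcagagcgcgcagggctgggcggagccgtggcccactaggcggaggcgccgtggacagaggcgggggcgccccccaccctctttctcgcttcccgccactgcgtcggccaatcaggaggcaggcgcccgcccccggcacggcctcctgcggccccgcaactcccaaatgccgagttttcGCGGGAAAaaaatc
E2F2 (chr1:23531234-23531483, minus strand): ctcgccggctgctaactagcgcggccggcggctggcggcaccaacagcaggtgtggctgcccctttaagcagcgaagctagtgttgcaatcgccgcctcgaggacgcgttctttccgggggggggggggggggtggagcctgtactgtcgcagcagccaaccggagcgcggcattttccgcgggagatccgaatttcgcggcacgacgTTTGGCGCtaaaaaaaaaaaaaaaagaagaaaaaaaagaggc
MCM7 and UHRF1 hold TTTCCCGC, read as GCGGGAAA on the gene's strand, beginning 187 and 14 bases before the start, and MCM7 also holds the E-box. E2F2 holds TTTGGCGC beginning 42 bases before the start. In the windows of 300 bases searched, from 250 before to 50 after the start, TTTCCCGC was found in 2.59% and TTTGGCGC in 1.11% of the 9856 promoters matched among the genes tested. The share among the DNA replication genes that were not called was not counted. Whether the motif sets these 3 genes apart from them was not tested.

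The 7 motifs E2F, its other core, ETS, AP-1, E-box, RBPJ and C/EBP were searched on both strands in the promoters of the called genes, of which 35 with a higher and 46 with a lower interaction were matched. The E2F motif TTTCCCGC was found in 2 of the 46 lower (4.35%) and 0 of the 35 higher, beside 2.59% of all. Its other core TTTGGCGC was found in 1 of the 46 lower (2.17%) and 0 of the 35 higher, beside 1.11% of all. These matches are those of the MCM7, UHRF1 and E2F2 promoters shown above. The E-box CACGTG was found in 9 of the 46 lower (19.6%) and 4 of the 35 higher (11.4%), beside 10.2% of all. The RBPJ motif GTGGGAA was found in 7 of the 46 lower (15.2%) and 1 of the 35 higher (2.86%), beside 5.7% of all. The ETS motif CCGGAAG was found in 7 of the 46 lower (15.2%) and 7 of the 35 higher (20%), beside 20% of all. TGANTCA, of AP-1, was found in 2.17% of the lower and 2.86% of the higher, beside 4.25% of all, and TTGCGCAA, of C/EBP factors, in none of either group, beside 0.223% of all. A match is a description of letters in the window.

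Most sterol synthesis genes rose in both genotypes, and for the 1 called the rise was smaller in ARID1B-KO. For cholesterol synthesis, 16 of 25 genes were called higher in ARID1B-KO (23% of all genes) and 21 in WT (17.5% of all genes), with 0 called lower in either, and the median response was 0.39 in ARID1B-KO and 0.58 in WT. The interaction was negative in 19 of 25, with a median of -0.19, and 1 member was called, beside 0.46% of all genes called lower. That was HMGCS1, the cytosolic HMG-CoA synthase. HMGCS1 had 442, 483 and 523 CPM in sorafenib-treated ARID1B-KO cells, against 370.2, 378 and 411 CPM with DMSO, and 568, 511 and 499.8 CPM in sorafenib-treated WT cells, against 274, 274 and 237 CPM with DMSO. DMSO-treated WT libraries were the lowest, and the interaction was -0.69 ± 0.14 (adjusted p = 0.0438). In fatty acid synthesis, 16 of 22 interactions were negative, with a median of -0.20. GPAM, the first enzyme of glycerolipid synthesis, was the 1 called, beside the same 0.46% of all genes. In ARID1B-KO cells GPAM was at 244, 244 and 232 CPM with sorafenib and 222, 231 and 222 CPM with DMSO, and in WT cells at 245, 241 and 217 CPM with sorafenib and 147, 147 and 139.9 CPM with DMSO. Only DMSO-treated WT libraries stood apart, and the interaction was -0.60 ± 0.11 (adjusted p = 0.0308).

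HMOX1, the haem-degrading enzyme induced by NRF2, had 71.7, 84.8 and 75.5 CPM with sorafenib and 44.2, 49.4 and 52.1 CPM with DMSO in ARID1B-KO, and 53.6, 50.2 and 55.2 CPM with sorafenib and 21.7, 19.6 and 19.7 CPM with DMSO in WT. Both genotypes rose, and the interaction was -0.71 ± 0.13 (adjusted p = 0.0306). The remaining 23 NRF2 targets were not called, and the median over all 24 was -0.02. TNFAIP3, an inhibitor of NF-kB signalling, was called among 12 genes of that pathway. HMOX1 and TNFAIP3 were each the 1 call of their list, beside 0.46% of all genes called lower. TNFAIP3 levels were 16.9, 17.3 and 16.1 CPM with sorafenib and 19.4, 18.9 and 18.2 CPM with DMSO in ARID1B-KO cells, and 53.8, 53.7 and 52.3 CPM with sorafenib and 38.4, 35.8 and 40.4 CPM with DMSO in WT cells. It rose in WT, with an interaction of -0.65 ± 0.11 (adjusted p = 0.0261).

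ATF5, a stress-induced transcription factor, was the called member among 39 genes of the ATF4 and amino acid response, at -0.65 ± 0.11 (adjusted p = 0.0263), and both genotypes fell. NUP62, which overlaps ATF5 on the opposite strand, was also called lower, at -0.52 ± 0.10 (adjusted p = 0.0401). The asparagine synthetase gene ASNS, a main ATF4 target, fell in both genotypes, with responses of -2.18 ± 0.12 in ARID1B-KO and -2.07 ± 0.11 in WT, with a 95% interval of the interaction of -0.45 to 0.22. FKBP4, a co-chaperone of HSP90, was the called member among 22 heat shock genes. This call, like that of ATF5 among 39, stands beside 0.46% of all genes called lower. FKBP4 had 45.4, 52.1 and 55.1 CPM in sorafenib-treated ARID1B-KO cells, against 135, 129 and 146 CPM with DMSO, and 60.8, 59.9 and 62.3 CPM in sorafenib-treated WT cells, against 112, 104 and 114 CPM with DMSO. Sorafenib-treated ARID1B-KO libraries were the lowest, the interaction was -0.57 ± 0.12 (adjusted p = 0.0438), and 19 of the 22 interactions were negative, with a median of -0.19. MAOA, monoamine oxidase A, responded by -0.11 ± 0.10 in ARID1B-KO and 0.76 ± 0.11 in WT, with an interaction of -0.87 ± 0.15 (adjusted p = 0.0264).

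Among genes with a higher interaction, BMF, a pro-apoptotic BH3-only protein, had a large rise in both genotypes. In ARID1B-KO cells BMF was at 74.5, 66.0 and 66.9 CPM with sorafenib and 5.71, 4.85 and 5.48 CPM with DMSO, and in WT cells at 51.3, 52.5 and 58.9 CPM with sorafenib and 6.71, 7.26 and 6.82 CPM with DMSO. The DMSO-treated groups did not overlap, with means of 5.35 CPM in ARID1B-KO and 6.93 CPM in WT. The sorafenib-treated ARID1B-KO libraries were the highest, with means of 69.1 CPM in ARID1B-KO and 54.2 CPM in WT. The log2 interaction thus holds both the lower DMSO level and the higher sorafenib level of ARID1B-KO. The response was 3.69 ± 0.10 in ARID1B-KO and 2.97 ± 0.10 in WT, and the interaction 0.72 ± 0.13 (adjusted p = 0.0315). The other 14 BCL2 family genes were not called, beside 0.374% of all genes called higher, and the median over all 15 was -0.01. TP53INP1, a p53 target of cell stress and autophagy, rose by 1.22 ± 0.09 in ARID1B-KO and 0.52 ± 0.09 in WT, with an interaction of 0.70 ± 0.12 (adjusted p = 0.0273). It was the 1 called of 30 p53 targets tested, beside the same 0.374% of all genes. Of the 30, 17 had a negative interaction, and the list median was -0.04.

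NR1I2 encodes the pregnane X receptor, which induces drug-metabolising enzymes, and CYP3A7 is a cytochrome P450 of fetal liver. NR1I2 had 15.7, 15.2 and 18.8 CPM in sorafenib-treated ARID1B-KO cells, against 4.61, 4.94 and 5.00 CPM with DMSO, and 12.4, 15.6 and 13.6 CPM in sorafenib-treated WT cells, against 7.29, 6.97 and 8.43 CPM with DMSO. Sorafenib-treated ARID1B-KO libraries overlapped with sorafenib-treated WT ones, and DMSO-treated ARID1B-KO libraries were the lowest. The interaction of NR1I2 was 0.90 ± 0.18 (adjusted p = 0.0424), called in none of the 12 fits without a library. CYP3A7 levels were 17.5, 19.5 and 14.96 CPM with sorafenib and 7.18, 7.68 and 6.59 CPM with DMSO in ARID1B-KO cells, and 4.45, 5.46 and 5.40 CPM with sorafenib and 3.73, 3.93 and 4.38 CPM with DMSO in WT cells. Sorafenib-treated ARID1B-KO libraries stood above the rest, and the interaction of CYP3A7 was 0.93 ± 0.20 (adjusted p = 0.0495). Of 18 P450 genes tested, 15 had a positive interaction, with a median of 0.37. CYP3A7 was the 1 called, beside 0.374% of all genes called higher. CYP3A7 shares sequence with the readthrough gene CYP3A7-CYP3A51P and with other CYP3A genes, so its level is uncertain.

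Of the 36 gene lists, 17 had a called member and 19 had none. Of 915 listed genes tested, 24 were called, beside 0.835% of all genes. Over all 12821 genes, 1963 had an unadjusted p under 0.05 in either direction. DESeq2 called 2.03% of its tested genes higher and 2.63% lower. Receptor tyrosine kinases and their ligands, which include targets of sorafenib, had 15 of 18 positive interactions with a median of 0.37 and no call by edgeR (3 at an unadjusted p under 0.05, 2 higher and 1 lower), and DESeq2 called 1, lower. Matrix, adhesion and mesenchymal genes had 25 of 34 positive with a median of 0.34, and no call by edgeR (3 at an unadjusted p under 0.05) or by DESeq2. Secreted hepatocyte proteins had 26 of 36 positive with a median of 0.19, no call by edgeR (3 at an unadjusted p under 0.05, all higher) and 2 by DESeq2, both higher. Of 39 complement and coagulation genes, 31 were called higher and 1 lower in ARID1B-KO, beside 23% of all genes higher and 23.7% lower, and 30 higher and 1 lower in WT, beside 17.5% and 18%, with a median interaction of 0.16 and no call by edgeR (3 at an unadjusted p under 0.05, all higher) or by DESeq2. Hepatocyte transcription factors and nuclear receptors had 27 of 34 negative, a median of -0.16, and 2 calls, CEBPA lower and NR1I2 higher (7 at an unadjusted p under 0.05, 2 higher and 5 lower), and DESeq2 called 2 higher and 3 lower. The 53 cytosolic ribosomal protein genes had a median of 0.01 and no call by edgeR (1 at an unadjusted p under 0.05), and DESeq2 called 1, higher. The 28 subunits of BAF-type complexes had a median of -0.07 and no call by edgeR (5 at an unadjusted p under 0.05, all lower) or by DESeq2.

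**Figure D5:**
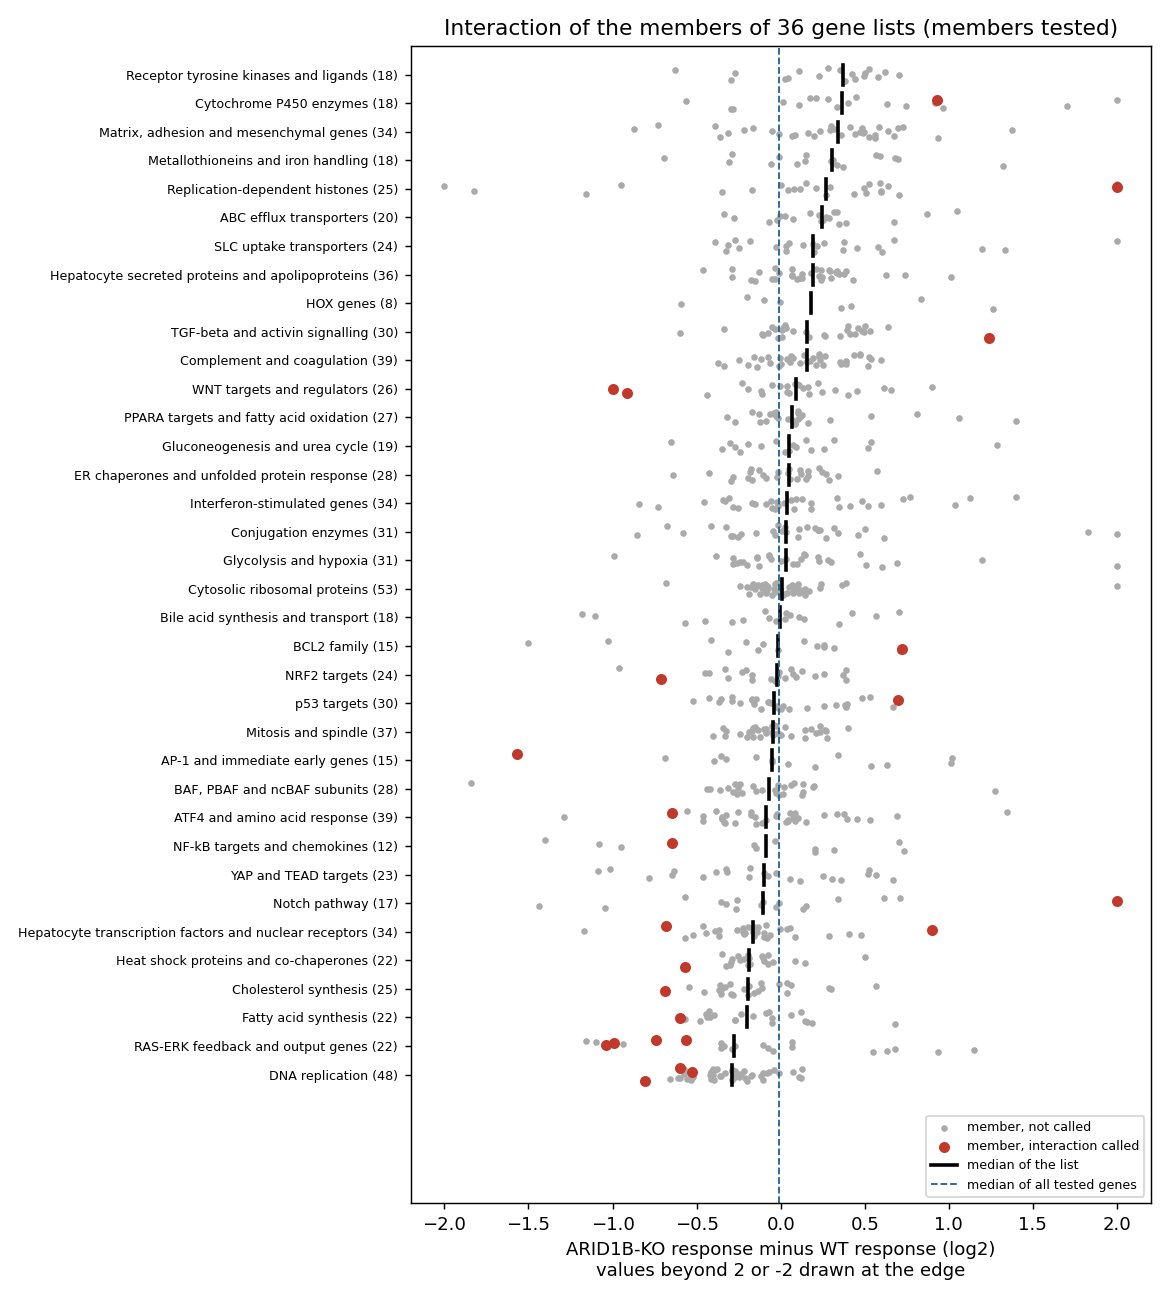
Interaction (x axis, log2, ARID1B-KO response minus WT response) of the tested members of 36 gene lists (y axis, number tested in brackets), with grey points for members, red points for called members, black bars for list medians and the dashed line for the median of all genes tested. DNA replication and RAS-ERK genes have the lowest medians (-0.29 and -0.28), and receptor tyrosine kinases and P450 enzymes the highest (0.37 for both).

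Across the genes that responded, the response was on balance larger in ARID1B-KO in both directions. Genes were sorted by the average response of the 2 genotypes, which is a separate combination of the same 4 group means. Of 404 genes whose average rose at least 2-fold, 280 (69.3%) rose more in ARID1B-KO, with a median response of 1.48 in ARID1B-KO and 1.23 in WT. Of 309 genes whose average fell at least 2-fold, 217 (70.2%) fell more in ARID1B-KO, with a median response of -1.41 in ARID1B-KO and -1.22 in WT. At 1.5-fold the shares were 67.8% of 1134 and 73% of 1090. These shares are descriptions over genes, which are not independent. Only genes with at least 5 CPM in their highest group were sorted, and of all 10449 such genes 46.5% had a positive interaction. The interaction was called for 10 of the 404 and 17 of the 309, beside 0.835% of all genes. Of the 10 called among genes that rose, 6 rose more in ARID1B-KO. Of the 17 called among genes that fell, 14 fell more in ARID1B-KO.

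For most genes the interaction was bounded and not called. The 95% interval lay within 1.5-fold in either direction for 5599 genes (43.7%), within 2-fold for 9598 (74.9%) and within 4-fold for 11483 (89.6%). The cyclin CCND1, with 281, 281 and 278 CPM with sorafenib and 322, 297 and 281 CPM with DMSO in ARID1B-KO and 186, 194 and 198 CPM with sorafenib and 183, 206 and 214 CPM with DMSO in WT, had an interaction of -0.05 (95% interval -0.31 to 0.21). Albumin, which rose in ARID1B-KO by 0.80 ± 0.19, had an interaction of 0.39 ± 0.26 (adjusted p = 0.517), with an interval of -0.18 to 0.96. CYP7A1, whose enzyme sets the rate of bile acid production, rose in both genotypes. CYP7A1 had 9.85, 8.62 and 5.78 CPM in sorafenib-treated ARID1B-KO cells, against 1.24, 1.03 and 0.962 CPM with DMSO, and 20.1, 19.9 and 19.2 CPM in sorafenib-treated WT cells, against 1.16, 1.22 and 1.27 CPM with DMSO. Sorafenib-treated WT libraries were the highest, the DMSO-treated groups overlapped, and the interaction of -1.11 ± 0.27 (adjusted p = 0.071) missed the threshold.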

How the data were processed

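The authors deposited a Salmon transcript table for each of the 12 libraries. Per the file headers, the columns are the transcript's estimated count (fractional, not normalized), TPM, length and effective length. TPM values deposited by the authors, scaled within a library, were used for marker levels only. Per the labels' protocols, polyadenylated RNA was made into libraries with the KAPA mRNA HyperPrep kit and read as pairs. The submitters' processing notes name Salmon, DESeq2 1.46.0 and GRCh38. Strand settings are not given in the sources used here.

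Of 177456 transcripts per table, 165533 (93.3%) were found in GENCODE release 44 by identifier without version. The others, with 2.872% to 3.204% of a library's counts, were left out. Gene counts, for 35810 genes, are rounded sums of the transcripts' estimated counts. Promoters are from RefSeq (GRCh38.p14). The 12821 genes kept by filterByExpr were tested in edgeR 4.0.16 (quasi-likelihood F test, robust, TMM normalization, R 4.3.3) with 4 group means and Benjamini-Hochberg adjustment over all of them. The SE was computed from the log2 fold change and F, as the size of the change over the root of F. Genes were called at an adjusted p under 0.05, and every adjusted p is from this test unless another tool is named. The procedure was tested on simulated data. Alternatives were DESeq2 1.42.0, voom of limma 3.58.1, other scalings and filters, an effective length offset, a replicate block, a test against a 1.5-fold change, differences in CPM, and fits without each library.

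Genes were named by rule from those called with at least 5 CPM in their highest group: the 12 most positive and 12 most negative by the size of the interaction less 1.96 SE, up to 8 of each of 3 shapes (opposite responses, a response in a single genotype in either direction), 6 larger and 6 smaller same-direction responses, and up to 3 called members of each list, together with 10 fixed genes. Part of them are printed. The comparison, gene lists and rule were chosen with earlier results of these data known. The replicates are stated to be biological, and groups follow the sample titles.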

Additional observations from a re-analysis of the deposited data

Results flagged for a closer look

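The interaction is itself a test of whether the sorafenib response differed between ARID1B-KO and WT cells. By that test 48 genes were called higher and 59 lower at an adjusted p under 0.05. A call does not establish a difference for each single gene. Of the 107, 15 were called in none of the 12 fits without a library. With the effective length offset, 2 genes were called. The genes called in at least 11 of the 12 fits without a library were CCDC150 (log2 interaction 1.47), ZNF117 (1.41), RAB17 (1.25), SAT1 (1.18), KANK4 (-0.864), ETV4 (-0.990), MRAS (-1.25), SPRING1 (-0.823), SSUH2 (-1.33) and H4C15 (6.37). The value of H4C15 rests on 2 counts in DMSO-treated ARID1B-KO cells and depends on the prior count of the fit, so it is no measure of size. The gap test for a single outlying library was not run, since every group has 3 libraries. At levels over 1 CPM, in none of the 107 called genes did 1 library differ more than 5-fold from both others of its group.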

How the results depend on the processing

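The number of interaction calls, 107, was 108 with RLE size factors, 92 with no filter on low counts, 125 with at least 50 counts in 3 libraries and 72 by limma-voom, and 100 of the 107 had the same sign in CPM. It became 555 by DESeq2, 30 with library totals only, 2 with the effective length offset, 2 against a 1.5-fold change, and 19 with the replicate block. Without single libraries it was 5 to 138. The 24 called list members became 78, 10, 0, 1 and 6 under these 5 settings, and 1 to 32 without single libraries. Calls for sorafenib in WT were 2870 with the length offset, and otherwise stayed within 1.5 times under the settings run in both genotypes. Of 18 same-numbered pairs of libraries from different groups, 1 had deviations correlated over 0.1 (median 0.0118). Only 4 of 12 libraries correlated best with their own number, so the block is no paired analysis. Within a genotype, same-numbered pairs correlated at 0.084, 0.078 and 0.050 in WT and 0.089, -0.021 and 0.184 in ARID1B-KO. Other-numbered pairs within a genotype ranged from -0.079 to 0.008 in WT and from -0.169 to 0.099 in ARID1B-KO. The block was shared by both genotypes, and pairing within each genotype was not tested.

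On the CPM scale the difference reversed for ETV4 (58.0), DUSP6 (43.4), LGR5 (42.5), ASNS (15.3), SPRY4 (12.2), CABLES2 (7.70), ETV5 (1.95), MAFF (0.515) and ARID1B (-1.95). The ARID1B interaction, near 0, reversed with library totals only (-0.0426) and the length offset (-0.128), and ranged over -0.140 to 0.0976 without single libraries (-0.0375 and -0.0292 in 2 of the fits), as did CCND1 over -0.0938 to 0.0257. The cause of these changes was not tested. The median interaction of all genes was -0.0114 with TMM and -0.058 with library totals only. Genes with at least a 2-fold average response were larger in ARID1B-KO in 64.4% to 75.7% of cases under the settings run. Low counts limited HEY1, MAFF, PPM1L in WT and H4C15.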
